A study of Mus musculus with 48 samples.

Results

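The genes examined were Cd3d, Cd3e, Cd4, Cd8a and Cd8b1, which encode parts of the T cell receptor complex and its coreceptors. They were taken by symbol from a panel of 547 immune genes, so they were 5 of 547, and all 5 were among the 491 genes with enough counts to be tested. The tissue was epididymal white adipose tissue, a visceral depot attached to the testis, taken from mice of the inbred strain C3H/HeOuJ that had eaten 1 of 6 diets freely for 6 months. The 8 control mice ate PicoDiets chow. The 4 custom DYETS diets crossed a carbohydrate with a fatty acid, giving 8 mice on sucrose/palmitate, 7 on starch/palmitate, and 9 each on sucrose/oleate and starch/oleate. Palmitate is a saturated fatty acid and oleate a monounsaturated one. The fifth fat-rich diet was a commercial adjusted fat diet, TD.95217, called the Western diet, with 7 mice. Per the labels all 5 fat-rich diets supplied 42% of calories as carbohydrate and 42% as fat, so against chow the fat content cannot be told apart from the rest of the diet. The labels name no genetic change and no drug in any group.

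T cells read peptides held by MHC molecules through a receptor whose 2 variable chains have almost no cytoplasmic part, so the signal passes through the CD3 chains, among them CD3 delta (Cd3d) and CD3 epsilon (Cd3e), and through the zeta chain (Cd247). CD4 binds MHC class II and marks helper and regulatory T cells. CD8 binds MHC class I and marks cytotoxic T cells, as a pair of alpha and beta chains (Cd8a and Cd8b1) or, on some other lymphocytes and dendritic cells, as 2 alpha chains. Visceral fat of lean mice holds T cells of both kinds, and their numbers are known to change with obesity. In whole tissue, more T cells and more of these RNAs per cell cannot be told apart.

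RefSeq promoter sequence was at hand for 3 of the 5 genes and is shown here as background. Whether gene position or promoter motifs bear on the levels below was not tested. Cd3d and Cd3e lie on chromosome 9 with no protein-coding gene between them, and Cd8a and Cd8b1 lie on chromosome 6, again with none between them. Cd4 is also on chromosome 6. Each run is the part of the window before the annotated gene, 5′ to 3′ on the gene's own strand, in build GRCm38.p6, and capitals mark motif matches on either strand. The motifs searched were those of RUNX factors as TGTGGT, the E-box as CANNTG, the GATA family as AGATAA, the TCF/LEF pair as CTTTGA, ETS factors as AGGAAG and the TATA box as TATAAA.
Cd3d, chr9:44981536-44981768, plus strand: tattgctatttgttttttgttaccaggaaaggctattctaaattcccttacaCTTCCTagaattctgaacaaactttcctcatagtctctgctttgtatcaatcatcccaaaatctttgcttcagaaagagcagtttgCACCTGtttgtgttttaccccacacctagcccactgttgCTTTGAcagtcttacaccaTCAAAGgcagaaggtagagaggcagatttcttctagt
Cd3e, chr9:45009664-45009861, minus strand: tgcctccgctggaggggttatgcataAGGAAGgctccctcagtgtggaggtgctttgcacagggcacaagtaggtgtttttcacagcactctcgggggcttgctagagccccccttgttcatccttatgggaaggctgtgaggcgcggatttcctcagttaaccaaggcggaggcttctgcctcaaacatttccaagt
Cd8a, chr6:71373177-71373426, plus strand: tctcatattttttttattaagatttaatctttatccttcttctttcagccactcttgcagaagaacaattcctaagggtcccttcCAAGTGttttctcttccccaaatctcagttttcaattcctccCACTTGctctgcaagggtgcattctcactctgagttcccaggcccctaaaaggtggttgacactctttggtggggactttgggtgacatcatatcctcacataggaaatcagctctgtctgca
The 233 bases of Cd3d held 2 TCF/LEF matches, 1 E-box and 1 ETS match. Windows of that length held at least 1 TCF/LEF match in 13.2% of 32851 promoters, an E-box in 63.9% and an ETS match in 27.5%. The 198 bases of Cd3e held 1 ETS match, found in 23.7% of promoters, and the 250 bases of Cd8a held 2 E-boxes, found in 66.2%. No 2 matches overlapped. None of the 3 windows held the RUNX, GATA or TATA box letters, which windows of 233 bases held in 13.3%, 9.57% and 11.9% of promoters.

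The assay, NanoString's nCounter Mouse Immunology panel, counts colour-coded probes bound to single RNA molecules without amplification. Total gene counts per library ran from 396391 to 888687, with a median of 635028. Values below are scaled counts, that is, counts after the geometric mean of 14 reference genes was made equal between libraries. The 8 negative control probes had a mean count of 7.51 and a highest count of 21, and their scaled mean lay between 6.97 and 8.48 in the 6 diets. No 2 libraries were copies of each other. In 6 libraries (2 each of starch/palmitate, starch/oleate and the Western diet) the mean log2 level of 4 epithelial genes, 9.72 to 12.7, exceeded the median of all libraries by over 3 median absolute deviations, and results were computed with and without them. Spiked-in positive control A, divided by control B, gave 3.17 to 3.39 on chow but 2.92 to 3.16 on starch/palmitate and 2.92 to 3.07 on sucrose/oleate, with no overlap, so for these 2 diets assay and diet cannot be told apart; a fit with this spike-in ratio as a covariate is given beside the results it changes.

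The 5 genes were rare transcripts in these fat pads and not all were measured equally well. A library was counted as above background where the count exceeded the mean of its own negative controls by 2 SD. Cd3d met this in 48 of 48 libraries, Cd4 in 46, Cd3e in 43 and Cd8b1 in 33. Cd8a met it in 10 of 48 libraries and in 0 of the 8 chow libraries, in which its mean scaled count of 7.29 ± 1.92 (SD) was not above the 7.60 of the negative controls. The chow level of Cd8a is therefore a background reading, and its differences from chow are between a weak signal and background. Cd8a also passed the count filter narrowly, with a mean count of 11.6 against the minimum of 10. Its highest counts, 35 and 31, were on starch/palmitate and starch/oleate, so the diets where it was high helped it to be tested. Counts of the 5 genes called below include Cd8a with that limit. Its calls against chow on both starch diets held with no low-count filter. Each gene's scaled counts still hold the background, which shrinks the differences of the weaker genes.

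**Figure D1:**
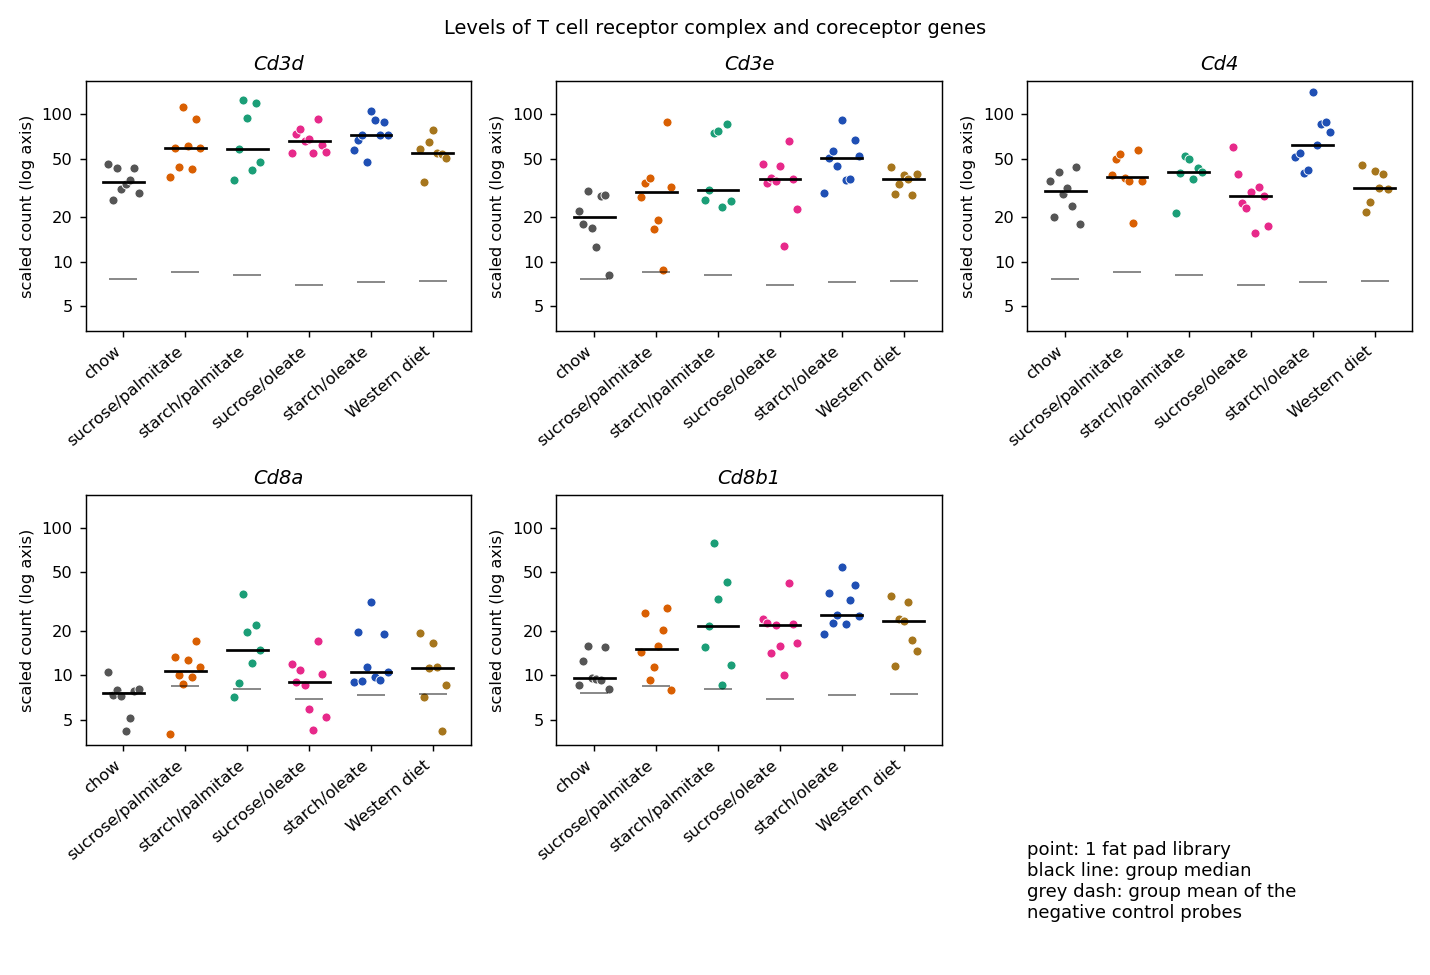
Scaled counts (log axis) of the 5 genes in every library, by diet, with a black line at the group median and a grey dash at the mean of the negative control probes. Cd3d lay above the dash in all libraries, and Cd8a lay around it on chow. For Cd4 the starch/oleate median was the highest, at 62.1 against 30.3 on chow.

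Cd3d, the CD3 delta chain, was higher than on chow in all 5 fat-rich diets. Its scaled counts on chow were 26.3 at the lowest, 34.9 at the median and 45.97 at the highest. They were 54.4, 66.2 and 92.7 on sucrose/oleate and 47.4, 72.3 and 106 on starch/oleate. Every library of both oleate diets, 9 of 9 in each, therefore stood above every chow library. The same 3 values were 37.8, 59.3 and 112 on sucrose/palmitate and 35.8, 57.9 and 126 on starch/palmitate, and 34.5, 54.3 and 78.0 on the Western diet. These 3 groups overlapped with chow, with 5 of 8, 5 of 7 and 6 of 7 libraries above its highest. The order of the medians was starch/oleate, sucrose/oleate, sucrose/palmitate, starch/palmitate, Western diet and chow, and between neighbours in that order only the step from the Western diet to chow passed the test.

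Cd3e, the CD3 epsilon chain, was less well measured and more scattered. Its scaled counts on chow were 8.07, 19.95 and 30.01 at the lowest, median and highest. On starch/oleate they were 29.1, 50.2 and 90.9, with 8 of 9 libraries above the highest chow library. On starch/palmitate they were 23.4, 30.6 and 86.0, where 3 libraries between 74.7 and 86.0 stood apart from 4 libraries of at most 30.6. Sucrose/oleate gave 12.9, 36.5 and 66.1, and the Western diet 28.4, 36.5 and 43.8. Sucrose/palmitate gave 8.74, 29.7 and 88.3, and its highest library, replicate 7, was far above the next at 37.1. The Western diet libraries were the least spread, with an SD of 5.72 about a mean of 35.7, and 5 of 7 lay above the chow range. No 2 neighbours in the order of the medians differed past the threshold.

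Cd4, the coreceptor of helper T cells, set starch/oleate apart from the other diets. Its scaled counts on chow were 18.2, 30.3 and 43.9 at the lowest, median and highest, and on starch/oleate they were 40.2, 62.1 and 141. In the starch/oleate group 7 of 9 libraries exceeded the highest chow library. The values were 15.7, 28.04 and 60.02 on sucrose/oleate, 18.4, 37.7 and 57.3 on sucrose/palmitate, 21.5, 40.7 and 52.2 on starch/palmitate, and 21.6, 31.6 and 45.6 on the Western diet. Of these groups 1 of 9, 3 of 8, 2 of 7 and 1 of 7 libraries lay above the chow range, so each of them, like starch/oleate, overlapped with chow. In the order of the medians only the step from starch/oleate down to starch/palmitate passed the test (0.81 ± 0.25 (SE) on the log2 scale, edgeR adjusted p = 0.011).

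Cd8b1, the CD8 beta chain, which with the alpha chain forms the coreceptor of cytotoxic T cells, was near background on chow, with scaled counts of 8.07, 9.56 and 15.9 and 2 of 8 libraries above background. On starch/oleate they were 19.1, 25.7 and 54.1, and all 9 libraries lay above the highest chow library and above background. Starch/palmitate was the most scattered group, with 8.68 at the lowest, 21.7 at the median and 78.8 at the highest, and 4 of 7 libraries above the chow range. The values were 8.01, 15.2 and 28.7 on sucrose/palmitate, 10.01, 22.1 and 42.6 on sucrose/oleate and 11.5, 23.4 and 34.5 on the Western diet. These 3 groups overlapped with chow, with 4 of 8, 6 of 9 and 5 of 7 libraries above its highest.

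Cd8a, the CD8 alpha chain, read 4.21, 7.58 and 10.5 on chow. It was 7.17, 14.99 and 35.8 on starch/palmitate and 9.04, 10.5 and 31.7 on starch/oleate, where 3 of 7 and 3 of 9 libraries passed the background rule. Both groups overlapped with chow, with 5 of 7 and 4 of 9 libraries above its highest. On sucrose/palmitate, sucrose/oleate and the Western diet its medians were 10.8, 9.06 and 11.3, with 1 of 8, 2 of 9 and 1 of 7 libraries above background. Most Cd8a values thus lay within reach of the negative controls in every diet. For Cd8a and Cd8b1 no 2 neighbours in the order of the medians differed past the threshold.

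Differences from chow were tested for each fat-rich diet in a fit of all 48 libraries with edgeR's quasi-likelihood test, with Benjamini-Hochberg adjustment over the 491 genes and a threshold of 0.05. All 5 genes differed somewhere among the 6 diets, as did 64.8% of all genes tested. The labels number the samples within a diet and say no more of how they relate, so the p-values measure the spread between these fat pads. The 5 comparisons with chow share its libraries and are not independent of each other. The median difference from chow over all genes was itself above 0, at 0.20 on the log2 scale on sucrose/palmitate, 0.24 on starch/palmitate, 0.19 on sucrose/oleate, 0.35 on starch/oleate and 0.25 on the Western diet. With TMM scaling, which centres the bulk of the genes, these medians were 0.06, 0.08, 0.01, 0.03 and 0.06, so the differences quoted have to be read against that shift.

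On starch/oleate all 5 genes rose, against 48.3% of all genes tested, 237 of them, that rose. Cd8b1 was 2.76-fold higher than on chow (log2 difference 1.47 ± 0.33 (SE), adjusted p = 0.00020) and Cd3e 2.50-fold (1.32 ± 0.33, adjusted p = 0.00061). Cd4 was 2.35-fold higher (1.23 ± 0.24, adjusted p = 3.2e-05), Cd3d 2.07-fold (1.05 ± 0.22, adjusted p = 8.0e-05) and Cd8a 1.96-fold (0.97 ± 0.32, adjusted p = 0.0087). Their median of 1.23 stood 0.89 above the median of all genes. All 5 calls held with each of the 48 libraries left out in turn. Cd8a missed the threshold with TMM scaling (0.63, adjusted p = 0.059), where 156 genes rose and 127 fell in place of 237 and 59. B cell genes moved with this result: all 10 tested markers of B cells rose on starch/oleate, and the summed scaled count of the 12 on the panel was 2988 to 3964 against 509 to 2092 on chow. With the mean of the B cell list as a covariate none of the 5 genes passed (Cd3d 0.72, adjusted p = 0.055; Cd4 0.63, adjusted p = 0.10; Cd8b1 0.97, adjusted p = 0.092; Cd3e 0.52, adjusted p = 0.33; Cd8a 0.46, adjusted p = 0.42). The B cell mean ran from 4.87 to 6.22 on chow and from 6.15 to 7.15 on starch/oleate. With so little overlap, that fit can barely tell B cell content from diet. The part of B cell content in the result was not tested beyond it.

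On starch/palmitate 4 of the 5 genes rose, against 20.6% of all genes tested. Cd8b1 was 2.71-fold higher than on chow (1.44 ± 0.35, edgeR adjusted p = 0.0028), Cd3e 2.39-fold (1.26 ± 0.34, adjusted p = 0.0064), Cd8a 2.35-fold (1.23 ± 0.33, adjusted p = 0.0054) and Cd3d 2.06-fold (1.05 ± 0.23, adjusted p = 0.0011). Cd4 did not pass, at 1.34-fold (0.42 ± 0.26, adjusted p = 0.21). Replicates 3, 4 and 6 carried the highest values of these genes in the group, with Cd3d at 94.0 to 126 where the other 4 libraries lay at 35.8 to 57.9, and the 4 calls held with any single library left out. Replicate 3 was also 1 of the 6 libraries high in epithelial genes, and the 4 calls held without those libraries. B cell markers moved less here, with 2 of 10 higher, and the 4 calls held with the B cell covariate. They did not hold with the spike-in ratio as a covariate (Cd3d 1.06, adjusted p = 0.056; Cd3e 0.96, adjusted p = 0.27; Cd8a 1.00, adjusted p = 0.22; Cd8b1 1.03, adjusted p = 0.21).

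On sucrose/oleate 3 of the 5 genes rose, against 28.9% of all genes tested. Cd3d was 1.86-fold higher (0.90 ± 0.22, edgeR adjusted p = 0.0014), Cd8b1 1.90-fold (0.92 ± 0.34, adjusted p = 0.028) and Cd3e 1.82-fold (0.86 ± 0.33, adjusted p = 0.035). Cd4 stood at the chow level (-0.01 ± 0.25, adjusted p = 0.97), and Cd8a did not pass (0.35 ± 0.33, adjusted p = 0.44). The Cd3d call held with each library left out in turn. That of Cd3e was lost without any 1 of 7 libraries (chow replicates 2, 4, 5 and 8 and sucrose/oleate replicates 1, 5 and 7), with adjusted p between 0.052 and 0.096, and also with TMM scaling (0.69, adjusted p = 0.066) and with the negative control mean subtracted (1.21, adjusted p = 0.054). That of Cd8b1 was lost without chow replicate 8 (adjusted p = 0.052) or sucrose/oleate replicate 7 (adjusted p = 0.094). With the spike-in ratio as a covariate none of the 3 passed (Cd3d 0.91, adjusted p = 0.078; Cd3e 0.55, adjusted p = 0.50; Cd8b1 0.50, adjusted p = 0.51). With the B cell covariate Cd3e (0.59, adjusted p = 0.15) and Cd8b1 (0.77, adjusted p = 0.084) did not pass.

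On the Western diet 2 of the 5 genes rose, against 32.8% of all genes tested. Cd8b1 was 2.02-fold higher (1.01 ± 0.35, edgeR adjusted p = 0.020) and Cd3d 1.56-fold (0.64 ± 0.23, adjusted p = 0.026). Cd3e at 0.80 ± 0.35 (adjusted p = 0.062), Cd8a at 0.62 ± 0.35 (adjusted p = 0.15) and Cd4 at 0.16 ± 0.26 (adjusted p = 0.65) did not pass. The Cd8b1 call was lost without Western diet replicate 1 (adjusted p = 0.055). The Cd3d call was lost without chow replicate 2 (adjusted p = 0.053) or Western diet replicate 4 (adjusted p = 0.077), and with TMM scaling (0.43, adjusted p = 0.11). Cd3e passed in 5 of the 11 alternatives: with positive control scaling (0.93, adjusted p = 0.047), with only the 2 groups in the fit (0.80, adjusted p = 0.017), with DESeq2 (0.80, adjusted p = 0.0495), with the spike-in ratio (0.86, adjusted p = 0.0497) and without the epithelium-high libraries. It also passed without chow replicate 3 (adjusted p = 0.046) or 7 (adjusted p = 0.047), or without sucrose/palmitate replicate 6 (adjusted p = 0.048) or 7 (adjusted p = 0.038), libraries that enter through the shared spread. Without the 6 libraries high in epithelial genes 4 genes passed, with Cd3e at 0.91 (adjusted p = 0.048) and Cd8a at 0.88 (adjusted p = 0.024) added. B cell markers rose here too, 7 of 10, and with the B cell covariate neither Cd8b1 (0.70, adjusted p = 0.21) nor Cd3d (0.41, adjusted p = 0.27) passed.

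On sucrose/palmitate 1 of the 5 genes rose, against 14.9% of all genes tested. This was Cd3d, 1.75-fold higher than on chow (0.81 ± 0.23, edgeR adjusted p = 0.019). Cd3e at 0.68 ± 0.34, Cd8b1 at 0.58 ± 0.35, Cd8a at 0.55 ± 0.34 and Cd4 at 0.42 ± 0.25 had adjusted p-values of 0.15 to 0.24. The Cd3d call was lost with positive control scaling (0.85, adjusted p = 0.055), with only the 2 groups in the fit (0.81, adjusted p = 0.054) and with the B cell covariate (0.62, adjusted p = 0.13). Of the 10 B cell markers 7 rose.

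**Figure D2:**
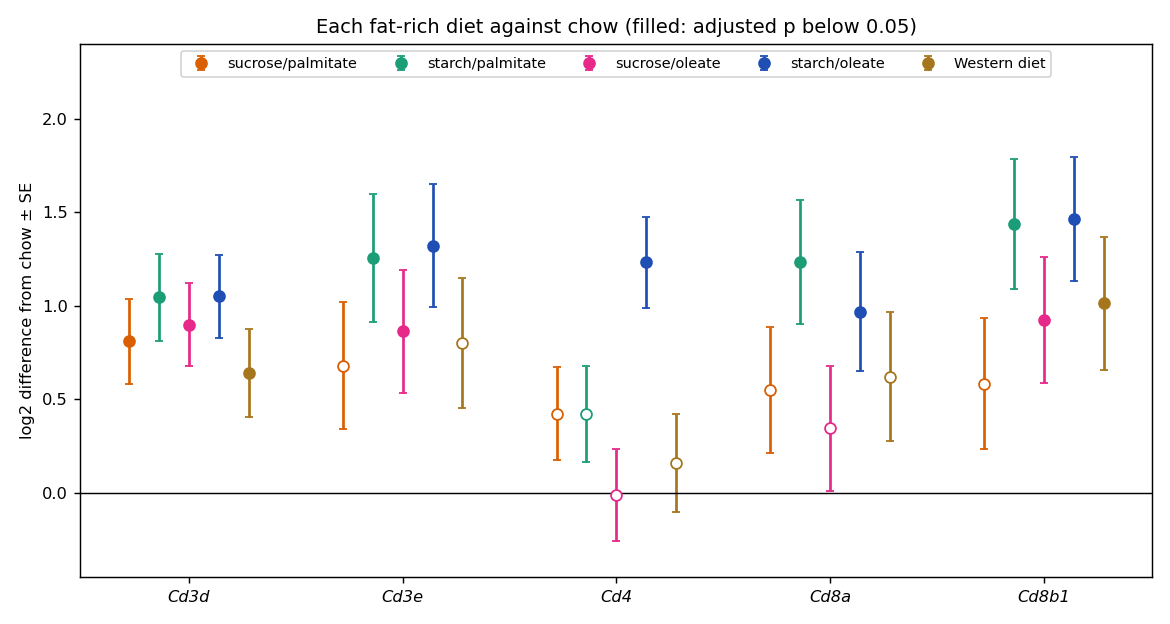
Log2 difference from chow (± SE) of each gene on the 5 fat-rich diets, from the edgeR fit, with filled symbols where the adjusted p was below 0.05. Cd3d is filled for all 5 diets, and Cd4 for starch/oleate alone, at 1.23.

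Scaling moved the split of calls over all genes. Genes that rose made up 86.9% of the calls on sucrose/palmitate, 81.5% on starch/palmitate, 78.9% on sucrose/oleate, 80.1% on starch/oleate and 80.5% on the Western diet. With TMM these shares were 54.0%, 56.7%, 58.2%, 55.1% and 59.1%. Every member called against chow with the reference genes kept its direction with TMM.

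The custom diets allow the carbohydrate and the fat to be compared within the same fit. Sucrose gave lower values than starch, over both fats, for 3 of the 5 genes, against 9.98% of all genes called in either direction (20 higher and 29 lower on sucrose, or 30 and 24 with TMM scaling). Cd4 was lower on sucrose by a log2 difference of -0.62 ± 0.17 (edgeR adjusted p = 0.017), a call that held in all 48 fits that left out a single library and was lost with positive control scaling (-0.66, adjusted p = 0.067) and the B cell covariate (-0.50, adjusted p = 0.054). This Cd4 value is the average of -1.24 with oleate and 0.00 with palmitate, given below, and describes neither fat. Cd8b1 (-0.70 ± 0.23, adjusted p = 0.047) and Cd8a (-0.65 ± 0.22, adjusted p = 0.049) passed only narrowly. With single libraries left out, Cd8b1 kept its call in 29 of 48 fits and Cd8a in 19 of 48, and of the 10 alternatives that tested them Cd8b1 passed in 2 and Cd8a in 1. With the spike-in ratio as a covariate Cd4 kept its call, and Cd8b1 and Cd8a did not. Without the 6 libraries high in epithelial genes, Cd8b1 stood at -0.53 (adjusted p = 0.11) and Cd8a at -0.57 (adjusted p = 0.077). Cd3e at -0.52 ± 0.23 (adjusted p = 0.14; adjusted p = 0.028 without sucrose/palmitate replicate 7) and Cd3d at -0.19 ± 0.15 (adjusted p = 0.46) did not pass. The 95% interval of the Cd3d difference ran from -0.50 to 0.11. No B cell marker differed between sucrose and starch, out of 10, while 3 of 4 epithelial genes were lower on sucrose, and the part of epithelial content in the Cd8a and Cd8b1 differences was not tested beyond that fit.

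Palmitate and oleate did not differ past the threshold for any of the 5 genes over both carbohydrates, although 34.4% of all genes tested did (53 higher and 116 lower on palmitate, or 100 and 92 with TMM scaling). The differences, palmitate minus oleate, were -0.05 for Cd3d, -0.13 for Cd3e, -0.19 for Cd4, 0.24 for Cd8a and -0.19 for Cd8b1 on the log2 scale, with edgeR adjusted p between 0.42 and 0.84. Before adjustment none of the 5 had a p below the threshold either, and DESeq2 called none of them. The 95% intervals were -0.35 to 0.26 for Cd3d and -0.53 to 0.15 for Cd4, and reached 0.66 for Cd8a, so differences of that size remain within the error. For Cd4 this average joins unlike differences and describes neither carbohydrate. Palmitate minus oleate was 0.43 ± 0.24 (SE) with sucrose (edgeR adjusted p = 0.27) and -0.81 ± 0.25 with starch (adjusted p = 0.011).

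The difference of Cd4 between sucrose and starch was seen with oleate and not with palmitate, and the test of that gap passed. With oleate, sucrose gave a mean scaled count of 30.1 ± 13.4 (SD, n = 9) and starch 71.3 ± 31.5 (n = 9), a log2 difference of -1.24 ± 0.23 (SE, edgeR adjusted p = 0.00025). The spike-in ratios of both oleate diets did not overlap, so assay and diet cannot be told apart in this difference. With palmitate, sucrose gave 40.6 ± 12.6 (n = 8) and starch 40.5 ± 10.1 (n = 7), a difference of 0.00 ± 0.25 (adjusted p = 0.99). The interaction of carbohydrate and fat, which tests the gap between these differences, was 1.24 ± 0.35 (adjusted p = 0.024), with a 95% interval of 0.57 to 1.92, and 5.5% of all genes tested passed it (20 above 0 and 7 below, or 15 and 17 with TMM scaling). It held with each library left out in turn, including starch/oleate replicate 5, the highest library at 141. It was lost with positive control scaling (1.01, adjusted p = 0.25), with the negative control mean subtracted (1.45, adjusted p = 0.055), and with the spike-in ratio (1.26, adjusted p = 0.23) or the B cell list (0.67, adjusted p = 0.29) as a covariate. Among the B cell markers 5 of 10 also passed the interaction. The other 4 genes had interactions of -0.06 to -0.31 with adjusted p between 0.77 and 0.95, and with wide intervals, such as -1.19 to 0.57 for Cd8b1.

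**Figure D3:**
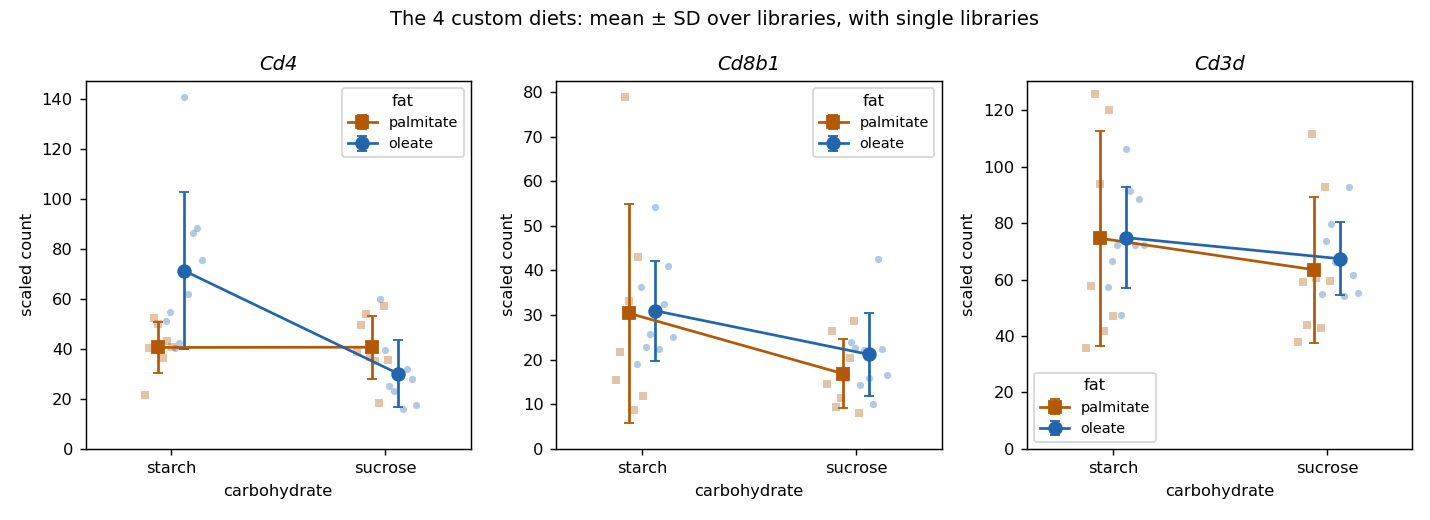
Scaled counts of Cd4, Cd8b1 and Cd3d on the 4 custom diets (mean ± SD, faint points are single libraries), with carbohydrate on the x axis and fat by colour. The lines of Cd4 cross, with starch/oleate at 71.3 and the other 3 means between 30.1 and 40.6, while those of Cd3d and Cd8b1 run nearly side by side.

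The comparisons between single pairs of fat-rich diets called Cd4 in each pair that held starch/oleate. Sucrose/oleate against starch/oleate called 15.1% of all genes, and of the 5 genes Cd4 alone. Starch/palmitate against starch/oleate called 32.6%, again with Cd4 alone (-0.81 ± 0.25, edgeR adjusted p = 0.011), a call lost with positive control scaling (-0.75, adjusted p = 0.097) and the B cell covariate (-0.40, adjusted p = 0.39). The Western diet against starch/oleate called 16.9%, and Cd4 alone (-1.07 ± 0.25, adjusted p = 0.0032). Starch/oleate against sucrose/palmitate called 40.1%, with Cd4 (0.81 ± 0.24, adjusted p = 0.0067) and Cd8b1 (0.88 ± 0.32, adjusted p = 0.025) higher on starch/oleate. With the B cell covariate neither passed (Cd4 0.56, adjusted p = 0.062; Cd8b1 0.70, adjusted p = 0.10). The Cd8b1 call was also lost without sucrose/palmitate replicate 3, 4 or 8 or starch/oleate replicate 5 (adjusted p 0.054 to 0.065). Without sucrose/palmitate replicate 7, Cd3e passed as well (1.03, adjusted p = 0.0077). The Cd4 differences of starch/oleate from sucrose/oleate and from the Western diet kept their calls under all 11 alternatives and with each library left out. Between sucrose/oleate and starch/oleate the spike-in ratio did not overlap, so assay and diet cannot be told apart in that pair. None of the 5 genes passed in the pairs without starch/oleate. Of all genes, 2.04% were called between sucrose/palmitate and starch/palmitate, 3.67% between sucrose/palmitate and sucrose/oleate, and 3.67% between sucrose/oleate and starch/palmitate. Against the Western diet, 6.11% were called for sucrose/palmitate, 8.76% for starch/palmitate and 3.46% for sucrose/oleate.

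Subtracting the negative controls raised the differences of the weakly counted genes and left their calls against chow on the starch diets in place, while Cd8a passed on the Western diet as well (2.81, edgeR adjusted p = 0.047). Against chow on starch/palmitate, Cd8b1 went from 1.44 to 2.63 (edgeR adjusted p = 0.0040) and Cd8a from 1.23 to 3.87 (adjusted p = 0.0077). On starch/oleate Cd8b1 went to 2.72 (adjusted p = 0.00041) and Cd8a to 3.49 (adjusted p = 0.0045). Since the chow level of Cd8a lay at background, the size of its difference rests on the handling of background. Cd3d changed little, from 1.05 to 1.24 on starch/oleate.

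The ratio of coreceptor counts within a library needs no scaling between libraries and is given as a description. The median of Cd8b1 over Cd4 was 0.373 on chow, 0.413 on sucrose/palmitate, 0.384 on starch/oleate, 0.568 on the Western diet, 0.636 on sucrose/oleate and 0.667 on starch/palmitate. All groups overlapped: the ratio ran from 0.243 to 0.632 on chow and from 0.238 to 1.51 on starch/palmitate. The median of Cd4 over Cd3d was 0.844 on chow and 0.895 on starch/oleate but 0.348 on sucrose/oleate, where 1 library reached 1.09. Probes differ in how well they bind, so the ratios do not compare the amounts of the 2 RNAs. No background was removed, and Cd8b1 was above background in 2 of 8 libraries on chow and 4 of 8 on sucrose/palmitate. Differences of Cd8b1 over Cd4 between diets therefore mix signal with background.

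Fat pads high in 1 of the 5 genes tended to be high in the others within the same diet. After the mean of each diet was removed from log2(scaled count + 1), all 10 pairs were positively correlated over the 48 libraries, with Pearson r from 0.47 for Cd4 and Cd8b1 to 0.67 for Cd8a and Cd8b1, and Spearman rho from 0.50 to 0.65. All 10 pairs passed in permutations within diets, with adjusted p of at most 0.00052 for r and 0.0011 for rho. For Cd8a and Cd8b1 the adjusted p was 5.0e-05 for r, and the r was 0.68 without the 2 libraries farthest from the median of Cd8a. Without the 2 farthest libraries r stayed between 0.44 and 0.69 over the 10 pairs. Within single diets r was positive for every pair, from 0.067 (Cd4 and Cd8b1 on sucrose/palmitate) to 0.96 (Cd3d and Cd3e on starch/palmitate). With TMM scaling the r for Cd4 and Cd8b1 was 0.34. All genes of a library share 1 scaling factor, and its part in these relations was not tested beyond the TMM values. The relation was not particular to these 5 genes. Among the 490 other genes tested, ranked by rho to a member, the other members stood between 6 (Cd3e for Cd4) and 54 (Cd3d for Cd8b1).

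**Figure D4:**
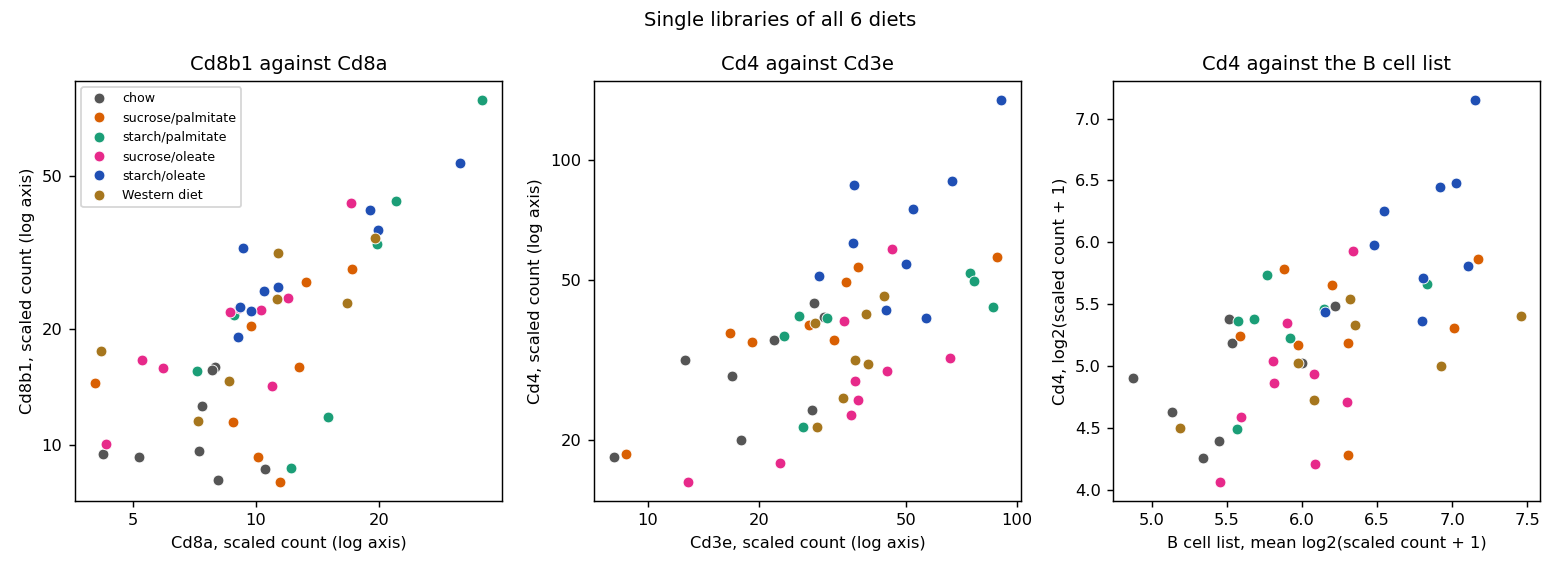
Each point is 1 library, coloured by diet: Cd8b1 against Cd8a and Cd4 against Cd3e in scaled counts (log axes), and Cd4 against the mean of the B cell list in log2(scaled count + 1). Libraries high in 1 gene were mostly high in the other. The highest Cd4 values were those of starch/oleate libraries, but the lowest of that diet, at 40.2 scaled counts, lay within the chow range. Starch/oleate libraries lay mostly high in the B cell list.

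The same libraries were set against the B cell list, since B cells carry none of the 5 genes but share lymphoid aggregates with T cells. With diet means removed, r was 0.44 for Cd4 (rho 0.41, adjusted permutation p = 0.0080 for r and 0.023 for rho) and 0.41 for Cd3e (rho 0.39, adjusted p = 0.010 and 0.023). It was 0.32 for Cd8b1 (rho 0.32, adjusted p = 0.060 and 0.062), 0.31 for Cd3d (rho 0.30, adjusted p = 0.060 and 0.068) and 0.25 for Cd8a (rho 0.26, adjusted p = 0.11 and 0.084), none of which passed. Leaving out the 2 libraries farthest from the median gave 0.40 for Cd4 and 0.36 for Cd3e. Within single diets r for Cd4 ran from 0.18 to 0.67. For Cd3e it ran from 0.12 to 0.64. The mean log2 level of the B cell list was 5.51 on chow and 6.78 on starch/oleate, with 1 overlapping pair of values, 6.22 at the highest on chow and 6.15 at the lowest on starch/oleate.

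The genes whose values followed each of the 5 most closely over the 48 libraries, with diet means removed, are named by Spearman rho. For Cd3d these were Sh2d1a, an adaptor of SLAM receptors in T and natural killer cells, at 0.74, Cd247 at 0.69, the checkpoint receptor Pdcd1 at 0.67, the adhesion molecule Vcam1 at 0.65 and perforin, Prf1, at 0.64. For Cd3e they were the chemokine receptor Cxcr6 at 0.76, the interleukin 2 receptor chain Il2rb at 0.75, the chemokine Ccl5 at 0.74, the kinase Lck at 0.73 and Spn at 0.72. For Cd4 they were the natural killer receptor Klrd1 at 0.74, Ltb at 0.70, Ccl5 at 0.70, Vcam1 at 0.67 and the chemokine Ccl8 at 0.67. For Cd8a they were Lck at 0.73, the immunoproteasome subunit Psmb9 at 0.71, Cd27 at 0.69, Il2rb at 0.68 and Cxcl10 at 0.67. For Cd8b1 they were the integrin Itgal at 0.73, the chemokine receptor Cxcr3 at 0.72, its ligand Cxcl10 at 0.71, Spn at 0.71 and Cd274 at 0.70. Most of these are genes of lymphocytes, but natural killer cells express several of them too, and none of the 5 members was among the closest 5 of another.

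Other genes of the T cell receptor pathway were read from fixed lists. No fit with the spike-in ratio is given for listed genes, here or below. On starch/palmitate and sucrose/oleate, assay and diet therefore cannot be told apart for them. Their counts stand beside the shares of all genes that rose, which were 14.9% on sucrose/palmitate, 20.6% on starch/palmitate, 28.9% on sucrose/oleate, 48.3% on starch/oleate and 32.8% on the Western diet. Of 13 signalling genes tested, 3 rose on sucrose/palmitate, 4 on starch/palmitate, 8 on sucrose/oleate, 9 on starch/oleate and 8 on the Western diet. On starch/oleate and on the Western diet 1 more fell. Their median differences were 0.28, 0.25, 0.35, 0.59 and 0.51, beside 0.20, 0.24, 0.19, 0.35 and 0.25 for all genes. Lck, the kinase bound to the tails of CD4 and CD8 that starts the signal, had scaled counts of 52.6 to 114 on chow (median 85.2) and 132 to 240 on starch/oleate (median 153), with no overlap. It rose on starch/oleate (0.97 ± 0.18, edgeR adjusted p = 9.6e-06), starch/palmitate (0.75 ± 0.18, adjusted p = 0.0029), sucrose/oleate (0.63 ± 0.17, adjusted p = 0.0042) and the Western diet (0.57 ± 0.18, adjusted p = 0.011), and was lower on sucrose than on starch (-0.39 ± 0.12, adjusted p = 0.044). Cd247, the zeta chain, rose on the same 4 diets by 0.45 to 0.71, and reached its largest difference on starch/palmitate (0.71 ± 0.19, adjusted p = 0.0052). Zap70, the kinase that docks on the phosphorylated receptor, passed in none of the 5, with 0.68 ± 0.43 (adjusted p = 0.17) on starch/oleate. Ptpn6 and Ptprc, phosphatases found in all leukocytes, had the smallest p-values in the list: Ptpn6 rose on all 5 diets, by 0.79 to 1.72, and Ptprc on 3, by 0.89 to 1.37.

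Of 12 costimulation and adhesion genes tested, 0 rose on sucrose/palmitate, 1 on starch/palmitate, 2 on sucrose/oleate, 5 on starch/oleate and 2 on the Western diet, and none fell. These counts lay below the share of all genes that rose on each diet. Icos, a costimulatory receptor of activated T cells, rose on starch/palmitate (0.69 ± 0.24, edgeR adjusted p = 0.030) and starch/oleate (0.80 ± 0.23, adjusted p = 0.0024). Cd48 and Cd44, which many leukocytes carry, rose on sucrose/oleate, starch/oleate and the Western diet. On starch/oleate Cd48 rose by 1.35 ± 0.24 (adjusted p = 6.0e-06) and Cd44 by 1.19 ± 0.25 (adjusted p = 6.4e-05).

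Genes of T cell identity and helper fates went both ways. Of 22 tested, 13 rose and 2 fell on starch/oleate, 7 rose and 1 fell on the Western diet, 6 rose and 1 fell on sucrose/oleate, and 4 rose on each palmitate diet, with 1 that fell on sucrose/palmitate. On starch/oleate 48.3% of all 491 genes rose and 59 genes fell. On the other diets the rises were near the shares of all genes. These were 32.8% on the Western diet, 28.9% on sucrose/oleate, 20.6% on starch/palmitate and 14.9% on sucrose/palmitate. Il2ra, the high-affinity interleukin 2 receptor chain of activated and regulatory T cells, fell on starch/oleate (-0.42 ± 0.14, edgeR adjusted p = 0.010) and the Western diet (-0.48 ± 0.15, adjusted p = 0.011) and rose on sucrose/palmitate (0.45 ± 0.14, adjusted p = 0.032). It was higher on sucrose than on starch by 0.51 ± 0.10 (adjusted p = 0.00070), the opposite direction to Cd4. Zbtb7b, the factor that commits thymocytes to the CD4 lineage, fell on starch/oleate (-0.52 ± 0.09, adjusted p = 2.6e-06), sucrose/oleate (-0.43 ± 0.09, adjusted p = 0.00017) and sucrose/palmitate (-0.29 ± 0.09, adjusted p = 0.028). Its scaled counts overlapped between diets, from 335 to 532 on chow and 253 to 365 on starch/oleate, and it is also expressed outside T cells. Runx1, a factor of many blood cells, rose on all 5 diets by 0.56 to 1.30.

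Tigit and Pdcd1, inhibitory receptors of T cells, rose on both starch diets. Of 6 regulatory and checkpoint genes 2 rose on starch/palmitate, 4 on starch/oleate, and 1 each on sucrose/oleate and the Western diet, and the others did not pass. The shares of all genes that rose on these diets, in that order, were 20.6%, 48.3%, 28.9% and 32.8%. Tigit rose on starch/palmitate (1.57 ± 0.32, edgeR adjusted p = 0.00055) and starch/oleate (1.04 ± 0.31, adjusted p = 0.0042) and was lower on sucrose than on starch (-1.06 ± 0.22, adjusted p = 0.00078). Pdcd1, which encodes PD-1, followed the same course, with 1.72 ± 0.35 (adjusted p = 0.00055), 1.02 ± 0.34 (adjusted p = 0.0095) and -0.71 ± 0.23 (adjusted p = 0.048). Il1rl1, the receptor of interleukin 33 on regulatory T cells and mast cells, rose on sucrose/oleate, starch/oleate and the Western diet by 0.74 to 1.12. Of 4 cytotoxic granule genes 3 rose on starch/oleate, with Gzmb at 1.06 ± 0.23 (adjusted p = 0.00013), and 1 on each of the other custom diets. Of all genes 48.3% rose on starch/oleate and 14.9% to 28.9% on the other custom diets. Gzma rose on sucrose/oleate by 1.22 ± 0.26 (adjusted p = 0.00032), on sucrose/palmitate by 0.81 ± 0.27 (adjusted p = 0.035) and on starch/oleate by 0.61 ± 0.26 (adjusted p = 0.040).

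Markers of the other cells in these fat pads also differed from chow, and their part in the differences of the 5 genes was not tested. Of 8 natural killer genes 1 rose on sucrose/palmitate, 3 on starch/palmitate, 4 on each oleate diet and 2 on the Western diet, which for starch/oleate is near the 48.3% of all genes and for sucrose/palmitate and the Western diet below their 14.9% and 32.8%. Of 7 macrophage genes 6 rose on starch/oleate and 2 to 4 on the other 4 diets, beside 48.3% and 14.9% to 32.8% of all genes. The macrophage scavenger receptor Cd163 went the other way and fell on all but sucrose/palmitate, by 0.95 to 1.33 on the log2 scale. The summed count of the 7 genes was 11147 to 17531 on starch/oleate against 3925 to 10388 on chow, with no overlap. Of 7 dendritic cell genes 5 rose on starch/oleate, beside 48.3% of all genes. Macrophages and some dendritic cells of mice can carry low CD4 or CD8 alpha, so Cd4 and Cd8a are not markers of T cells alone. All 3 adipocyte genes fell on sucrose/palmitate, starch/palmitate and the Western diet, and 2 of 3 on each oleate diet. Of all 491 genes, 11 fell on sucrose/palmitate, 23 on starch/palmitate and 39 on the Western diet. On sucrose/oleate 38 of them fell, and on starch/oleate 59.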

How the data were processed

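Total RNA of 48 epididymal fat pads was measured on the nCounter Mouse Immunology panel. The authors deposited 1 table of whole-number counts per probe, with no scaling between samples in its values; the counting software is not given in the sources used here. Columns were matched to diets by the sample labels. Each library was scaled by the geometric mean of its 14 reference genes, and 491 of 547 genes, those averaging 10 counts or more, were tested. All 48 samples were fitted in edgeR 4.0.16 (R 4.3.3; glmQLFit, glmQLFTest) with 1 mean per diet; p-values are two-sided, with Benjamini-Hochberg adjustment within a comparison and a threshold of 0.05. The SE is the log2 difference divided by the square root of F. Correlations used log2(scaled count + 1) and 100000 permutations within diets.

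The 5 genes, the pathway and marker lists and the tests were chosen with earlier results of these data known. Named were the 5 genes, the 3 genes of each pathway list with the smallest p of the F test among those past the threshold, the 5 genes closest to each member by Spearman rho, and counts of 5 or fewer. Cd247 and Zap70 were added after their values were seen, for their place in the receptor complex.

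Alternatives were TMM scaling, positive control scaling, no low-count filter, a minimum mean of 30 counts, subtraction of the negative control mean, a replicate block, a fit of only the groups compared, DESeq2 1.42.0, the spike-in (positive control) ratio or the mean of 10 B cell genes as a covariate, and each library left out in turn. Leaving out 6 libraries with a high epithelium list (over the median by more than 3 median absolute deviations) was added after the data were seen. The fit was tested on simulated data. The number of samples and, for Cd8a and Cd8b1, counts near the negative controls limit precision. Probe accessions matched RefSeq for 5 of 5 genes; the table has no promoter for Cd4 or Cd8b1.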

Additional observations from a re-analysis of the deposited data

Results flagged for a closer look

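In 4 of the 30 sets of libraries examined (5 genes in 6 diets) 1 library stood apart from the rest by the size of its gap to the next. The rule is set to flag about 1 set in 20 by chance. That rate cannot be compared with the 4 of 30, since the gaps were taken on unlogged scaled counts and the sets share libraries. Cd3e was 88.3 scaled counts in sucrose/palmitate replicate 7, with the next library at 37.1. Cd4 was 141 in starch/oleate replicate 5, with the next at 88.4. Cd8a was 31.7 in the same library, with the next at 19.8. Cd8b1 was 42.6 in sucrose/oleate replicate 7, with the next at 24.01. Starch/oleate replicate 5 was the highest of its diet for all 5 genes, and the calls of starch/oleate against chow held without it.

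The difference of Cd4 between sucrose and starch was not the same with palmitate as with oleate, by the test of the interaction itself (1.24 on the log2 scale, edgeR adjusted p = 0.024).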

How the results depend on the processing

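No result for the 5 genes that had passed changed direction under any alternative. With a mean count of at least 30, Cd8a and Cd8b1 were not tested, by construction, and the number of the 5 genes called was 2 on starch/palmitate, 3 on starch/oleate, 1 on the Western diet, 1 for sucrose against starch and 3 for any difference among the diets. The B cell list as a covariate left 0 on sucrose/palmitate, 0 on starch/oleate, 0 on the Western diet, 1 on sucrose/oleate, 0 for sucrose against starch and 0 for the interaction, and 4 on starch/palmitate as before. The spike-in ratio as a covariate left 0 on starch/palmitate, 0 on sucrose/oleate, 1 for sucrose against starch and 0 for the interaction. Positive control scaling left 0 on sucrose/palmitate, 0 for sucrose against starch and 0 for the interaction. With the negative control mean subtracted the interaction had 0 and sucrose against starch 1, and with TMM scaling the Western diet had 1. With only the groups compared in the fit, sucrose/palmitate had 0 and sucrose against starch 1. With no filter sucrose against starch had 1, and without the 6 libraries high in epithelial genes it had 1 and the Western diet 4. Why the counts moved was not tested.

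The replicate numbers did not pair the libraries: same-numbered libraries of different diets correlated at -0.016 on average (112 pairs), and differently numbered ones at 0.0067 (846 pairs). With the replicate number as a block, sucrose against starch had 1 call of the 5 in place of 3, and every other count against chow, for the fat and for the interaction was as before.

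With single libraries left out, the number called ran from 1 to 3 on the Western diet, 1 to 3 on sucrose/oleate and 1 to 4 for sucrose against starch. It stayed at 1 on sucrose/palmitate, 4 on starch/palmitate, 5 on starch/oleate, 0 for palmitate against oleate, 1 for the interaction and 5 for any difference. Cd8a counts lay within reach of the negative controls in most libraries, so a level below them was not detectable.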
